A study of Mus musculus with 18 samples.

Results

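Transcripts of 8 genes of fatty acid breakdown and ketone body formation were followed through liver development in the mouse. The genes were Cpt1a, Cpt2, Acadvl, Acadm and Acaa2 of the mitochondrion, Ehhadh and Acaa1b of the peroxisome, and Bdh1 of ketone body metabolism. A probe set, the group of short probes that reports 1 transcript on the array, was taken where the platform annotation gave it exactly 1 of these symbols. This gave 14 probe sets of 45101 on the array, for 8 genes of the 18193 with a probe set naming 1 gene only. A further 2 probe sets name both Acaa1b and its close relative Acaa1a and stand apart from the 14. Where a gene had several probe sets, the one with the highest mean log2 intensity over all arrays represents it.

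Fatty acids are burnt by beta-oxidation, in which each round shortens the chain by a pair of carbons. Long chains enter the mitochondrion as carnitine esters, and very long or branched chains are first shortened in the peroxisome, whose oxidation enzymes are classic targets of the nuclear receptor PPAR alpha. In the liver the resulting acetyl-CoA can be turned into ketone bodies, which other organs use as fuel in fasting and in the suckling period.

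All mice were CD-1, an outbred laboratory stock. Embryonic liver was measured on 2 arrays per stage, on each day from 10.5 to 14.5 days post conception (dpc) and once more at 16.5 dpc. Adult liver came from 10-week-old females, on 2 arrays, and the embryo with its liver removed, called the rest of the embryo, was measured on 1 array per day from 10.5 to 12.5 dpc and 1 at 14.5 dpc. Each embryonic sample pooled at least 5 embryos of unstated sex. The protocol text attached to the adult samples describes a partial removal of the liver, whereas their titles and descriptions call them baseline and normal, and they are taken here as normal adult liver. No agent or transgene is named for any group.

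The deposited values are linear intensities, 1 per probe set and array. The 14 liver arrays had median intensities of 69.7 to 79.5 and 99th percentiles of 1325 to 2935, and the 4 rest-of-embryo arrays had medians of 91.9 to 107 and 99th percentiles of 5553 to 5953. Values below 0 occurred only on the liver arrays, 1216 to 1535 on each, and values of exactly 0 only on the others, 35 to 41 on each. The form of the values as well as their scale thus differed between the 2 sets, which bears on every liver-to-rest value below. Whether rescaling whole arrays removes that difference for single probe sets was not tested. Within the liver, adult replicate 1 had a 99th percentile of 1325, against 2285 on adult replicate 2 and at least 2481 on the embryonic arrays. As a check of tissue, the hepatocyte protein albumin (Alb) read 956 to 8941 on the embryonic liver arrays, 7464 and 8205 in the adult, and 105 to 1219.7 in the rest of the embryo.

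Promoter sequences are shown because the genes fall into different patterns over development. RefSeq promoter windows were found for 7 of the 8 genes, 8 windows in all since Bdh1 has a pair of start sites. The 250 bases before the start are given 5′ to 3′ for 4 genes, 1 or more from each compartment, with every CG dinucleotide in capitals. For Bdh1 the window of the upstream start site is shown, and the Cpt1a window lies inside the annotated span of the gene, chr19:3322326-3385735, ahead of a start site within it.
Acaa1b promoter, GRCm38.p6, chr9:119157094-119157343, minus strand: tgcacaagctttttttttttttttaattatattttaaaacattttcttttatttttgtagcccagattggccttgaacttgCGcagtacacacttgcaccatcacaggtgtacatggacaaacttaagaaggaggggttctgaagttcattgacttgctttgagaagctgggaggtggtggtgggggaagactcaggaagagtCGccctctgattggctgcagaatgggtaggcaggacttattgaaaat
Ehhadh promoter, GRCm38.p6, chr16:21787835-21788084, minus strand: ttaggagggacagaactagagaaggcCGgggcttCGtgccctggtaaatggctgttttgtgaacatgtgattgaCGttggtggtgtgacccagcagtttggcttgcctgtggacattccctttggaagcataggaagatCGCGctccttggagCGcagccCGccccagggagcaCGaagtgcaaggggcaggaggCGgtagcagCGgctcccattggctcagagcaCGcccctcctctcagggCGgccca
Cpt1a promoter, GRCm38.p6, chr19:3323051-3323300, plus strand: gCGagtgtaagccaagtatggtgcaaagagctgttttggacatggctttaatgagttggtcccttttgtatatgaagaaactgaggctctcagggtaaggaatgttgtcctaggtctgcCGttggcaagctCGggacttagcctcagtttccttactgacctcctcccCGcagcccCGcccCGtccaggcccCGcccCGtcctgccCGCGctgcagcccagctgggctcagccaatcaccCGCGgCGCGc
Bdh1 promoter, GRCm38.p6, chr16:31422047-31422296, plus strand: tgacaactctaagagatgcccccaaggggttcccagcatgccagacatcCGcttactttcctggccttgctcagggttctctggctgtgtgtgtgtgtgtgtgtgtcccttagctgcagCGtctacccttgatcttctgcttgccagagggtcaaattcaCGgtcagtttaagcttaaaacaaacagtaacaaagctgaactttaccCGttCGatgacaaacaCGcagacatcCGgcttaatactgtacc

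The Acaa1b window held 2 CG dinucleotides, as few as or fewer than which were found in 29.0% of the 32850 promoter windows in the table. Bdh1 held 7, Ehhadh 12 and Cpt1a 14, against a median of 6 over all windows. Acadvl held 9, Acadm 12 and Cpt2 13. The nuclear receptor half-site AGGTCA, searched on both strands, was present in the windows of Acadm, Acadvl and Cpt1a and in 14.02% of all windows. The variant GGGTCA was present in those of Ehhadh and Bdh1 and in 11.7% of all windows. An exact direct repeat of AGGTCA with 1 base between, a form of element bound by PPAR alpha and its partner RXR, was in no window of these genes and in 0.0335% of all windows. The GC box GGGCGG was in the windows of Cpt1a, Cpt2 and Ehhadh and in 32.7% of all windows, and TATAAA was in none of them and in 7.59% of all windows. These matches describe the letters of the windows and do not identify binding sites.

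Of the carnitine enzymes, Cpt1a is carnitine palmitoyltransferase of the outer mitochondrial membrane, the rate-limiting step of long-chain entry. Its pairs of arrays read, at the 6 stages from 10.5 to 16.5 dpc in order, 132 and 138, 184 and 211, 164 and 172, 245 and 223, 184 and 188, then 164.8 and 183. Adult liver read 623 and 745, above all 12 embryonic liver arrays. The rest of the embryo read 201, 248, 342 and 376 in order of stage. The 2 arrays of 10.5 dpc were the lowest and those of 13.5 dpc the highest of the embryonic liver arrays. Cpt2, the partner enzyme of the inner membrane, read, at the 6 stages from 10.5 to 16.5 dpc in order, 239.9 and 225, 288 and 313, 337 and 262, 438 and 428, 362 and 375, then 331 and 311. In the adult it read 709.6 and 639, and in the rest of the embryo 449.6, 332, 340.3 and 497. Like Cpt1a, it had its highest embryonic mean at 13.5 dpc and lay lower at 16.5 dpc, although neither later step passed the test.

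Acadvl and Acadm are the acyl-CoA dehydrogenases for very long and for medium chains. Acadvl read, at the 6 stages from 10.5 to 16.5 dpc in order, 191 and 247, 417 and 365, 453 and 445, 552 and 616, 662 and 678, then 589 and 570.0. Its adult values were 911 and 1088, above every embryonic liver array, and the rest of the embryo read 449, 495, 532 and 859. On the log2 scale Acadm had the narrowest range of the 8 genes between embryonic stage means. It read, at the 6 stages from 10.5 to 16.5 dpc in order, 605 and 477, 582 and 607, 693 and 639, 744 and 825, 881 and 842, then 866 and 943. The adult arrays read 1092 and 1299 and the rest of the embryo 858, 799, 898 and 1367, the last above both adult arrays. Acaa2 is the mitochondrial thiolase, which releases acetyl-CoA at the end of each round. It read, at the 6 stages from 10.5 to 16.5 dpc in order, 626 and 548, 826 and 816, 1117 and 1019.5, 1299 and 1353, 1538 and 1553, then 1513 and 1367. The adult arrays lay far apart, at 1511 and 3070.4, so that the lower one fell among the 14.5 and 16.5 dpc arrays. The rest of the embryo read 815, 802, 848 and 1849.

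The peroxisomal genes started near the lower limit of the arrays. Any value under 24.8, the 20th percentile over all arrays, was set to that floor before log2 was taken, so changes from below the floor are lower bounds. Ehhadh, the bifunctional enzyme that carries out the middle steps of peroxisomal oxidation, read, at the 6 stages from 10.5 to 16.5 dpc in order, 40.6 and 23.0, 63.6 and 69.4, 103 and 74.1, 125 and 149, 122 and 118, then 129 and 117. Adult liver read 921 and 889, far above every other array, and the rest of the embryo 39.3, 21.8, 47.4 and 60.3. Acaa1b, a peroxisomal thiolase, read, at the 6 stages from 10.5 to 16.5 dpc in order, 12.1 and 10.4, 21.7 and 9.48, 58.1 and 29.8, 67.8 and 95.0, 137 and 153, then 145 and 132. It read 2486 and 4679.9 in the adult and 34.1, 51.6, 46.2 and 67.1 in the rest of the embryo. All 4 liver arrays of 10.5 and 11.5 dpc lay below the floor.

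Bdh1 is 3-hydroxybutyrate dehydrogenase, the mitochondrial enzyme that interconverts the ketone bodies acetoacetate and 3-hydroxybutyrate. It read, at the 6 stages from 10.5 to 16.5 dpc in order, 90.8 and 102, 519.8 and 543, 701 and 662, 1058 and 1022, 943 and 917, then 979.9 and 1025. The adult arrays read 884 and 1635, on either side of the 16.5 dpc values. On the rest-of-embryo arrays it gave 484, 682, 711 and 849.9, well above the liver at 10.5 dpc and close to it from 12.5 dpc on.

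**Figure D1:**
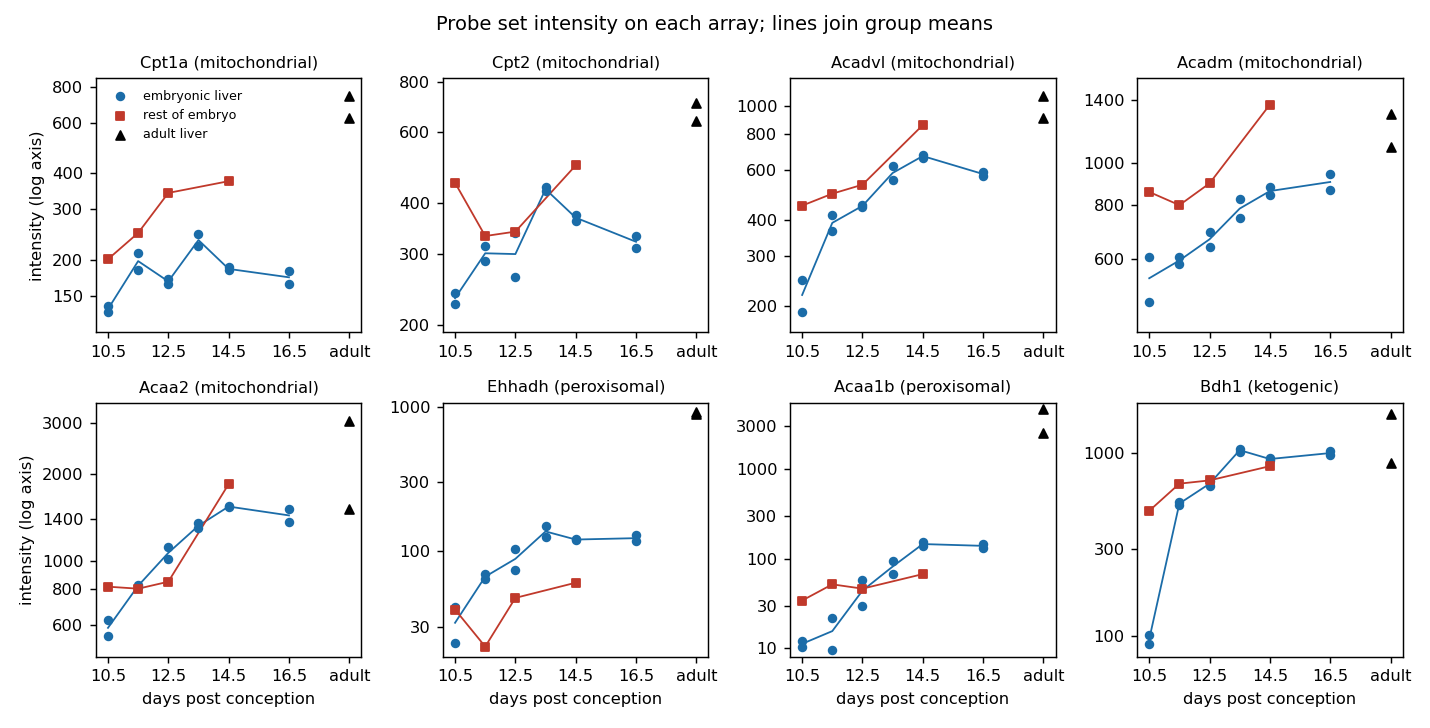
Intensity of the representative probe set of each gene on all 18 arrays, on a log axis, against days post conception, with adult liver at the right; points are arrays and lines join the means of a stage. Ehhadh and Acaa1b stay below 160 in embryonic liver and reach 889 to 4679.9 in the adult, whereas Bdh1 reaches 1022 and 1058 at 13.5 dpc.

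The first comparison set the last embryonic stage against the earliest, 16.5 against 10.5 dpc. The peroxisomal and ketogenic genes rose most, and 3 of the 5 mitochondrial genes did not pass the test. A gene was called where limma, a linear model fitted across all genes, gave a Benjamini-Hochberg adjusted p under 0.05 and the groups were 1 log2 or more apart. Bdh1 rose from 96.3 ± 7.76 to 1002 ± 31.7 intensity units (SD, n = 2 arrays each), a difference of 3.38 log2 (SE 0.22, limma adjusted p = 1.35e-06). Acaa1b rose from 11.2 ± 1.23 to 138 ± 9.58, at least 5.57-fold or 2.48 log2 when counted from the floor (SE 0.34, limma adjusted p = 0.000197). With both arrays of 10.5 dpc set to 1 value, the SE and p of Acaa1b are too small.

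Ehhadh rose by 1.95 log2 (SE 0.23, limma adjusted p = 7.77e-05), with 1 of its 10.5 dpc arrays below the floor. To be tested, a gene had to exceed 78.0 on at least 2 arrays of the fit. Ehhadh and Acaa1b did so on both arrays of 16.5 dpc and on neither of 10.5 dpc, so their calls here are a description. Of the mitochondrial genes, Acadvl rose 2.67-fold, by 1.42 log2 (SE 0.14, limma adjusted p = 2.63e-05), and Acaa2 by 1.30 log2 (SE 0.25, limma adjusted p = 0.00201). Acadm differed by 0.75 log2 (95% interval 0.44 to 1.06), Cpt2 by 0.46 (0.17 to 0.76) and Cpt1a by 0.37 (0.07 to 0.66). The limma adjusted p was 0.00155 for Acadm and 0.0192 for Cpt2, both short of 1 log2, and 0.0554 for Cpt1a. In all, 5 of the 8 genes were called higher, Ehhadh and Acaa1b among them, and none lower. Over the 14125 genes tested, 10.4% were called higher and 6.98% lower. The median difference was 1.36 log2 over the 8 genes and 0.05 over all genes tested.

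Those counts rested on the 10.5 dpc arrays. When the arrays of 10.5 and 12.5 dpc were dropped and 16.5 dpc was compared with 11.5 dpc, only Acaa1b was called, at 2.48 log2 from the floor, against 6.64% of 13753 genes called higher. In that fit Bdh1 differed by 0.92 log2, Ehhadh by 0.89, Acaa2 by 0.81, Acadm by 0.60, Acadvl by 0.57 and Cpt2 by 0.10, and Cpt1a had the opposite sign at -0.19. Transcripts of other tissues moved with the 10.5 dpc samples. The summed intensity of 18 heart muscle genes was 17335 to 29455 at 10.5 dpc, 898 to 979.9 at 11.5 dpc, 5186 to 14347 at 12.5 dpc and 1674 to 2442 from 13.5 to 14.5 dpc, and 16 of the 18 were called lower at 16.5 than at 10.5 dpc. The summed intensity of 11 hepatocyte genes rose over the same stages, from 14263 to 14292 at 10.5 dpc to 50026 to 50615 at 16.5 dpc, with 10 of 11 called higher. Of 14 red cell genes 11 were called higher and 2 lower, and of 12 macrophage genes 8 higher and none lower. The part of these shifts in the rise of the 8 genes was not tested. In whole tissue, a change in the share of hepatocytes and a change in RNA per hepatocyte cannot be told apart.

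The genes differed in when they rose. Over the 6 stages the moderated F test of limma called 8 of the 8 genes, against 29.9% of all genes. Without the 10.5 and 12.5 dpc arrays it called 5, against 2268 of 13753 genes, and Acaa2, Bdh1 and Cpt1a were no longer called. In the step from 10.5 to 11.5 dpc Bdh1 rose by 2.47 log2 (SE 0.22, limma adjusted p = 7.74e-05) and Ehhadh by 1.06 log2 (SE 0.23, limma adjusted p = 0.0125), when 2.97% of all genes rose. Without either array of 11.5 dpc, or with a floor at the 40th percentile, 1 of the 2 was called. All 4 Ehhadh arrays of this step, at 23.0 to 69.4, lay below the filter of 78.0. Ehhadh entered the fit through later stages and the adult, so its call in this step is a description. Acadvl differed by 0.85 log2 in this step (limma adjusted p = 0.00352) and Cpt1a by 0.55 (limma adjusted p = 0.0202), both short of 1 log2. Cpt2 differed by 0.37, Acaa2 by 0.49 and Acadm by 0.15 log2, none of them called. Acaa1b had no measurable step, since all 4 arrays lay below the floor, and its differences in the next 3 steps were 0.75, 0.95 and 0.85 log2.

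After 11.5 dpc no step of any of the 8 genes was called by limma. At an unadjusted limma p under 0.05 there was 1 of the 8 genes from 11.5 to 12.5 dpc, 6 from 12.5 to 13.5, 2 from 13.5 to 14.5 and 0 from 14.5 to 16.5 dpc. Over all 14125 genes tested, 2294, 926, 685 and 882 passed that unadjusted threshold in these steps, in order. In the step from 11.5 to 12.5 dpc 2.95% of all genes were called in either direction, followed by 0.085%, 0.0566% and 0.0354% in the later steps, so these steps had few calls of any kind. From 12.5 to 13.5 dpc all 8 differences were positive, from 0.24 log2 for Acadm to 0.95 for Acaa1b, with limma adjusted p from 0.221 to 0.989. From 13.5 to 14.5 dpc Cpt1a, Cpt2, Ehhadh and Bdh1 had differences of -0.33 to -0.16 log2, and Acaa1b read 0.85 log2 higher. From 14.5 to 16.5 dpc no gene differed by more than 0.21 log2. The 2 genes with an unadjusted limma p under 0.05 from 13.5 to 14.5 dpc were Acaa1b, whose arrays went from 67.8 and 95.0 to 137 and 153, and Cpt1a, at -0.33 log2 from 245 and 223 to 184 and 188. In neither did the arrays of the 2 stages overlap, and for both the limma adjusted p was 1. The other Cpt1a probe sets differed by -0.94 and -0.91 log2 in this step (limma adjusted p = 0.234 and 0.216 over all probe sets).

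The second comparison set adult liver against 16.5 dpc. The peroxisomal genes and the carnitine enzymes rose, while the dehydrogenases, Acaa2 and Bdh1 were not called. Acaa1b rose 24.7-fold, from 138 ± 9.58 to 3583 ± 1551 (SD, n = 2 arrays each), by 4.62 log2 (SE 0.34, limma adjusted p = 7.06e-07). Ehhadh rose from 123 ± 8.52 to 905 ± 22.4, by 2.88 log2 (SE 0.23, limma adjusted p = 1.59e-06). Cpt1a rose from 174 ± 12.6 to 684 ± 86.0, by 1.97 log2 (SE 0.13, limma adjusted p = 4.15e-07). Cpt2 rose 2.10-fold, by 1.07 log2 (SE 0.13, limma adjusted p = 4.5e-05), and without adult replicate 1 its difference of 0.99 log2 was not called.

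Acadvl differed by 0.78 log2 (95% interval 0.46 to 1.10, limma adjusted p = 0.000825) and Acadm by 0.40 log2 (0.09 to 0.71, limma adjusted p = 0.031), each below the 1 log2 limit. Acaa2 differed by 0.58 log2 (0.03 to 1.14, limma adjusted p = 0.0704) and Bdh1 by 0.26 log2 (-0.22 to 0.75, limma adjusted p = 0.342). For both, the adult arrays overlapped those of 16.5 dpc. Acaa2 was called at 1.09 log2 without adult replicate 1 and read 0.07 without replicate 2, and Bdh1 read 0.71 and -0.18 log2 in the same fits. At 16.5 dpc the mean intensity was 3.86% of the adult mean for Acaa1b, 13.6% for Ehhadh, 25.4% for Cpt1a and 47.6% for Cpt2. It was 58.0% for Acadvl, 62.9% for Acaa2, 75.7% for Acadm and 79.6% for Bdh1.

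In this comparison 4 of 8 genes were called higher and none lower, against 10.3% higher and 22.8% lower of all genes. The median of all genes was -0.24 log2, and relative to it every one of the 8 genes read higher by 0.50 log2 or more. Quantile normalization, which gives all arrays 1 distribution, brought the median of all genes to -0.01 log2 and called 6 of the 8 genes higher, against 13.9% of all genes. The added genes were Acaa2 at 1.35 log2 and Acadvl at 1.32 log2. Calls over all genes split into 1460 higher and 3221 lower as deposited and 1960 higher and 2587 lower after quantile normalization. All 14 red cell genes were lower in the adult, with a median difference of -6.27 log2, and their summed intensity went from 36769 to 36922 at 16.5 dpc to 716 to 741 in the adult. Of the 11 hepatocyte genes 3 were higher and 1 lower. The part of the lost red cell RNA in the rise of the 8 genes was not tested.

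Against the mean of all 6 embryonic stages, adult liver was called higher for 7 of the 8 genes, against 11.9% of all genes. Acaa1b differed by 5.86 log2, with 4 of its embryonic arrays below the floor, Ehhadh by 3.42, Cpt1a by 1.92, Acadvl by 1.14, Bdh1 and Cpt2 by 1.08 each and Acaa2 by 1.01. Acadm, at 0.74 log2, was not called. Without the 10.5 and 12.5 dpc arrays 3 were called, namely Acaa1b, Ehhadh and Cpt1a, against 1645 of 13753 genes called higher. Without adult replicate 2 the calls of Acaa2, at 0.50 log2, and Bdh1, at 0.64, were lost, and without adult replicate 1 they read 1.52 log2 each. Acaa2 was also short of the limit, at 0.99 log2, after median centring, and at 0.992 to 0.997 log2 without replicate 2 of 10.5, 12.5 or 16.5 dpc liver.

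**Figure D2:**
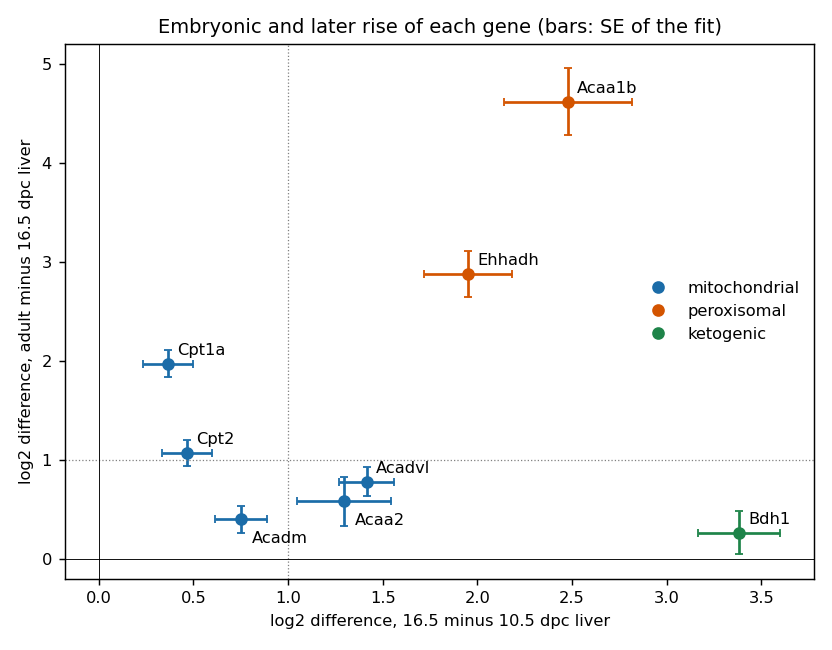
Log2 difference of 16.5 minus 10.5 dpc liver (horizontal) against adult minus 16.5 dpc liver (vertical) for the 8 genes, with SE bars of the fit and dotted lines at 1 log2. Both comparisons share the 16.5 dpc arrays; Bdh1 lies at 3.38 and 0.26, Cpt1a at 0.37 and 1.97, and Ehhadh and Acaa1b pass 1 log2 on both axes.

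Bdh1, Cpt1a, Cpt2 and Acaa2 had further probe sets. The second of Bdh1 read 7.54 and 11.4 at 10.5 dpc, both below the floor. It then read 112 and 114 a day later, 248 and 213 by 16.5 dpc and 371 and 317 in the adult. It rose by 3.21 log2 from the floor between 10.5 and 16.5 dpc and differed by 0.58 log2 between 16.5 dpc and the adult (limma adjusted p = 0.0041 over all probe sets). Its adult arrays lay above those of 16.5 dpc, whereas those of the representative probe set lay on both sides. The other Cpt1a probe sets rose by 2.36 and 2.46 log2 from 16.5 dpc to the adult. Those of Acaa2 rose by 1.48 and 1.70 log2 from 10.5 to 16.5 dpc, and the second Cpt2 probe set differed by 0.65 log2 there and by 0.94 log2 from 16.5 dpc to the adult, which was not called. The probe sets that name both Acaa1b and Acaa1a read 247 and 285, and 163 and 161, at 10.5 dpc, where the Acaa1b probe set was below the floor. They read 1743 and 3340.2, and 1229.6 and 1757, in the adult, higher than on any embryonic array. How far the Acaa1b probe set also detects Acaa1a was not tested.

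The third comparison asked how liver differed from the rest of the embryo at the 4 stages with both tissues. As deposited, limma called none of the 8 genes, with 7 differences below 0 and that of Ehhadh above it, against 14% of 14895 genes called higher and 51.2% lower. Of the 8, 5 had an unadjusted limma p under 0.05, as had 12858 of the 14895 genes tested. Ehhadh differed by 0.75 log2 (SE 0.26, limma adjusted p = 0.0184), Acaa2 by -0.09, Acaa1b by -0.14, Cpt2 by -0.43, Acadvl by -0.50, Acadm by -0.55, Bdh1 by -0.66 and Cpt1a by -0.74. Without the rest-of-embryo array of 10.5 dpc Bdh1 read -0.097 log2, and without that of 14.5 dpc -0.92. The median of all genes tested was -1.04 log2, and relative to that value all 8 genes lay on the liver side, by 0.30 log2 for Cpt1a to 1.78 for Ehhadh. The same did not hold after median centring of the arrays, given below.

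The direction followed the scaling for most of the genes. After quantile normalization, with a median of all genes of -0.14 log2, all 8 differences were positive and 2 were called, Acaa2 at 1.09 log2 (limma adjusted p = 1.25e-05) and Ehhadh at 1.002 (limma adjusted p = 0.00707), against 19.4% of all genes called higher. After centring each array on its median only Ehhadh was called, at 1.14 log2 (limma adjusted p = 0.00202), against 17.1% called higher. In that fit Acaa2 at 0.30 and Acaa1b at 0.25 log2 also lay above 0. Cpt1a at -0.34, Bdh1 at -0.26, Acadm at -0.16, Acadvl at -0.11 and Cpt2 at -0.04 log2 lay below it. Ehhadh read above 0 under all 3 scalings. Ehhadh and Acaa1b entered this fit through liver alone, having passed the filter of 78.0 on 3 and 2 of the 8 liver arrays and on none of the 4 others, so the calls of Ehhadh are a description and not a test. Over all genes, 2078 were called higher and 7622 lower as deposited, 2540 and 5382 after median centring and 2885 and 2986 after quantile normalization. Without the rest-of-embryo array of 10.5 dpc 1 of the 8 genes was called as deposited.

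**Figure D3:**
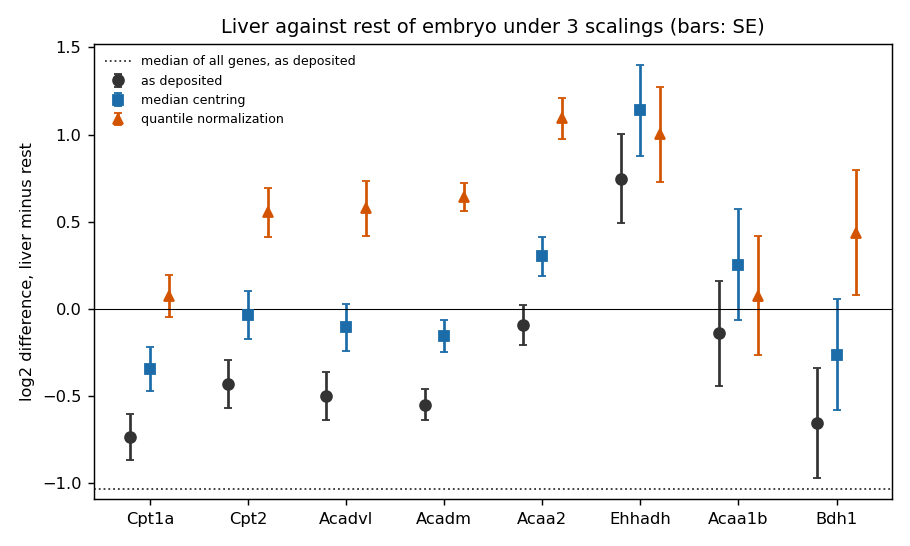
Log2 difference of liver minus rest of embryo for the 8 genes under 3 scalings of the arrays, with SE bars, and a dotted line at the median of all genes as deposited, -1.04. As deposited, 7 symbols lie below 0 and all symbols after quantile normalization lie above it; Ehhadh lies above 0 in each case.

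Probe sets of a gene also disagreed between the tissues. For Cpt1a the representative probe set differed by -0.74 log2, another was called lower at -1.52 log2 (limma adjusted p = 5.09e-05 over all probe sets) and the last read 0.60 log2. On the rest-of-embryo arrays the former read 169, 219.8, 225 and 371 and the latter 33.8, 32.9, 60.3 and 72.0, whereas in adult liver they read 403 and 461 against 394 and 406. For Acaa2 one probe set was called higher in liver at 1.17 log2 (limma adjusted p = 0.000951), reading 190.0, 94.7, 169.7 and 413 in the rest of the embryo. The other 2 read -0.09 and -0.37 log2. No single direction between the tissues can be given for Cpt1a or Acaa2.

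The tissue difference changed with stage for Bdh1 by limma's test, a call that was lost when the filter on low values was dropped or probe sets were averaged. In log2 per day, with a limit of 0.25, the liver gained on the rest of the embryo by 0.53 for Bdh1 (SE 0.14, limma adjusted p = 0.0256), when 6% of all genes gained. Without the filter the limma adjusted p was 0.0532, and with the mean over probe sets the slope was 0.43 (limma adjusted p = 0.0584). The second Bdh1 probe set had a slope of 0.34 and was not called (limma adjusted p = 0.155 over all probe sets). The slope of Acaa1b was 0.46, which also passed the threshold but is no test, since only its 14.5 dpc liver arrays passed the filter. Bdh1 in liver minus rest read -2.33 log2 at 10.5 dpc, -0.36 at 11.5, -0.06 at 12.5 and 0.13 at 14.5 dpc. Without the rest-of-embryo array of 10.5 dpc its slope was 0.15 log2 per day. Acaa1b read -0.46, -1.06, -0.15 and 1.11 log2 at these stages, and without the rest-of-embryo array of 14.5 dpc its slope was 0.15. Leaving out any 1 array in turn left between 0 and 2 of the 8 genes called. The other 6 slopes lay between -0.15 for Cpt1a and 0.22 for Ehhadh and were not called.

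The wider pathway was read from lists of genes that leave out the 8. Shares over all genes were 10.4% higher and 6.98% lower for 16.5 against 10.5 dpc, and 10.3% higher and 22.8% lower for the adult against 16.5 dpc. Of 20 tested genes of peroxisomal oxidation 7 rose from 10.5 to 16.5 dpc and none fell, which left 13 without a call; the median was 0.94 log2. From 16.5 dpc to the adult 16 rose and none fell, which left 4 without a call; the median was 1.71 log2 against -0.24 over all genes. Of 24 tested genes of mitochondrial oxidation 2 rose and 1 fell in the embryonic comparison, with a median of 0.40 log2, shares near those over all genes, and 7 rose and none fell in the adult comparison, with a median of 0.41 log2. Without the 10.5 and 12.5 dpc arrays 3 peroxisomal genes rose from 11.5 to 16.5 dpc and no mitochondrial gene was called. The lists were described by counts and medians only, and where the product of each listed gene lies in the cell was not tested. Hacl1, Cyp4a14 and Slc16a7, named below, passed the filter of the liver fit on the adult arrays alone. Abcd2 and Pex11a, also counted among the 16, read 43.2 to 55.8 and 41.6 to 47.5 at 16.5 dpc, below the filter of 78.0. The adult count of peroxisomal genes thus includes genes below the filter at 16.5 dpc and is a description. Acox2 and Fabp1 passed the filter on both arrays of 16.5 dpc and on neither of 10.5 dpc, as did Acot8 and Decr2, so their embryonic calls are a description. Acot8 read 28.3 to 75.9 and Decr2 23.8 to 75.4 at 10.5 dpc.

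Among the peroxisomal genes, Acox2, the oxidase for branched chains and bile acid precursors, rose by 3.04 log2 from 10.5 to 16.5 dpc (SE 0.43, limma adjusted p = 0.000259), from 30.7 to 36.6 to 265 to 286. Hacl1, a lyase of branched-chain alpha-oxidation, rose by 5.07 log2 from 16.5 dpc to the adult (SE 0.35, limma adjusted p = 5.3e-07), from 39.4 to 51.1 to 1094 to 2089. On the mitochondrial list, the dehydrogenase Acad11 rose by 1.58 log2 from 10.5 to 16.5 dpc, and Acad10, a relative of it, fell by 1.48 log2, from 218 to 432 to 108 to 112. Slc25a20, the carrier that exchanges acylcarnitine for carnitine between Cpt1a and Cpt2, rose by 1.59 log2 from 16.5 dpc to the adult (SE 0.12, limma adjusted p = 1.25e-06).

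Of 6 tested ketone body genes 3 rose and 1 fell from 10.5 to 16.5 dpc, against 10.4% and 6.98% of all genes. From 16.5 dpc to the adult 1 rose and 2 fell, against 10.3% and 22.8% of all genes. Oxct1, the enzyme that commits ketone bodies to use as fuel and is low in mature hepatocytes, fell in both, by 1.10 log2 (SE 0.22, limma adjusted p = 0.00235) and 3.24 log2 (SE 0.22, limma adjusted p = 3.78e-07). It read 943 to 1257 at 10.5 dpc, 505 to 511 at 16.5 dpc and 42.0 to 69.1 in the adult, and 3255 to 4658 over the rest-of-embryo arrays. Bdh1, which acts on the same metabolites, thus rose in the embryonic interval in which Oxct1 fell. That interval starts at the 10.5 dpc liver arrays, where the summed intensity of 18 heart muscle genes was 17335 to 29455. At 16.5 dpc that sum was 2334 to 2365. The part of other tissues in the 10.5 dpc values of Oxct1, and so in its embryonic fall, was not tested. The monocarboxylate carrier Slc16a1 rose by 1.55 log2 from 10.5 to 16.5 dpc and fell by 1.71 log2 from there to the adult (limma adjusted p = 6.57e-07), to a mean of 618. Its relative Slc16a7 rose by 1.87 log2 from 16.5 dpc to the adult.

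Of 18 tested regulators 2 rose from 10.5 to 16.5 dpc, a share near that over all genes, among them the hepatocyte factor Hnf4a at 1.43 log2 (SE 0.26, limma adjusted p = 0.0014). From 16.5 dpc to the adult 6 rose and 2 fell, against 10.3% and 22.8% of all genes. Among them were Rxra, the partner of PPAR alpha, at 2.09 log2 and the deacetylase Sirt1 at -1.94 log2. Lpin1, Mlycd and Nr1h3, among the 6, read below the filter of 78.0 on both 16.5 dpc arrays. Lpin1, the other riser from 10.5 to 16.5 dpc, was also below it at 10.5 dpc, so both counts are a description. Ppara itself, named after its values were seen, read 340.5 to 354 at 10.5 dpc, 400.4 to 478 at 16.5 dpc and 494 to 645 in the adult, against 2.40 to 28.5 over the rest-of-embryo arrays. Of 13 further PPAR alpha targets 4 rose in the embryonic and 5 in the adult comparison, against 10.4% and 10.3% of all genes. None fell in either. Cd36 and Fabp1, among the 4, read below the filter of 78.0 on both 10.5 dpc arrays. Plin5 and Cyp4a14, among the 5, did so on both 16.5 dpc arrays, so these counts are a description. The fatty acid binding protein Fabp1 rose by 5.79 log2 from 10.5 to 16.5 dpc (SE 0.25, limma adjusted p = 1.37e-07), from 34.1 to 45.5 to 2085 to 2281. The fatty acid hydroxylase Cyp4a14 was at least 37.7-fold higher in the adult than at 16.5 dpc, where both arrays lay below the floor.

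**Figure D4:**
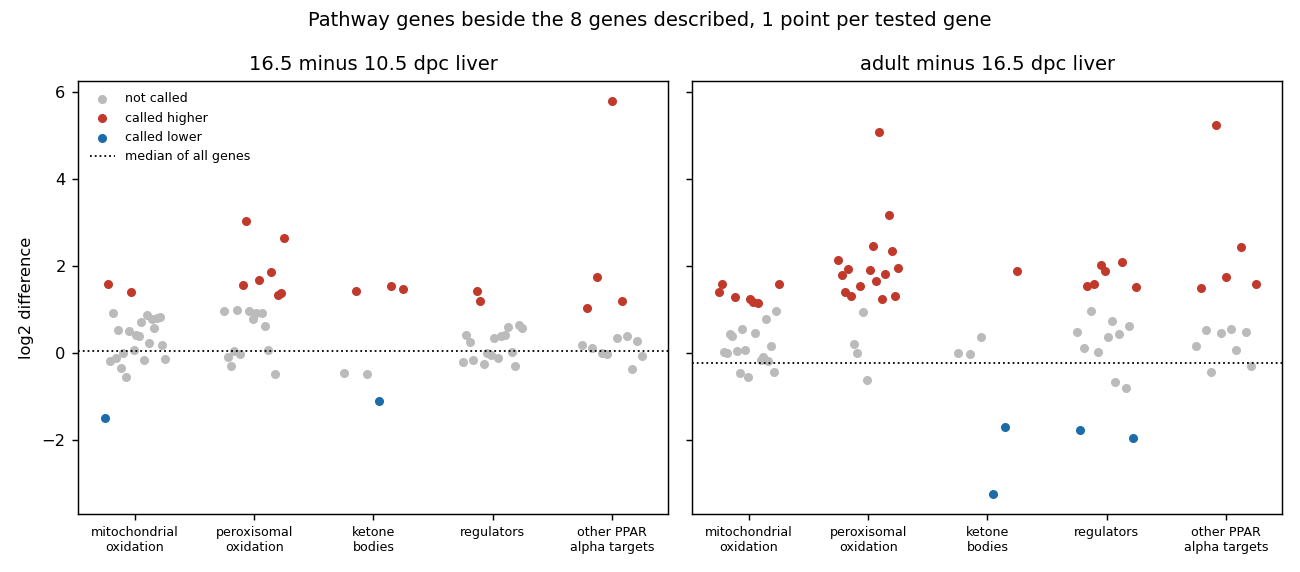
Log2 differences of pathway genes other than the 8 described, 1 point per tested gene, by list, for 16.5 minus 10.5 dpc liver (left) and adult minus 16.5 dpc liver (right), with the median of all genes dotted. In the right panel 16 of 20 genes of the peroxisomal list are called higher, against 7 of 24 of the mitochondrial list. Of the 16, Abcd2, Hacl1 and Pex11a read below the filter of 78.0 on both 16.5 dpc arrays.

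In the tissue comparison as deposited, 13 of 25 genes of the mitochondrial list were called lower in liver and none higher. Over all genes 51.2% were lower and 14% higher, so that the lower calls are near the share over all genes. After quantile normalization 2 were higher and 2 lower, against 19.4% and 20% over all genes. The largest difference was that of Cpt1c, a brain form of the carnitine enzyme, at -2.70 log2. Of 19 peroxisomal genes 3 were higher and 6 lower as deposited and 4 and 2 after quantile normalization. Acox2 was higher at 1.59 log2, with 2 of its 4 rest-of-embryo arrays below the floor, and Hacl1 was lower at -2.58 log2. Of 5 ketone body genes Oxct1 was lower at -2.45 log2 and Acat1 at -1.17 log2. Aacs, an acetoacetate-activating enzyme of the cytosol, was higher at 3.12 log2, and Bdh2 and Slc16a1 were not called. Among regulators Creb3l3, a liver factor of the fasting response, was at least 39.2-fold higher in liver, with all rest-of-embryo arrays below the floor, and the fatty acid synthesis enzyme Acaca was lower at -2.27 log2. Among PPAR alpha targets Fabp1 was higher at 3.50 log2, with 3 of its 4 rest-of-embryo arrays below the floor, and Txnip lower at -1.67 log2. Acox2 and Creb3l3 passed the filter on liver arrays alone and Hacl1 on the others alone. The heart and skeletal muscle marker sums were 19869 to 45979 and 3125 to 42452 on the rest-of-embryo arrays. On the liver arrays the heart sum was 17335 to 29455 at 10.5 dpc, 898 to 979.9 at 11.5, 5186 to 14347 at 12.5 and 2078 to 2442 at 14.5 dpc. The part of muscle transcripts of either side in these differences was not tested.

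For 1 gene of each compartment, the genes with the most similar profile over the 14 liver arrays were listed by Pearson correlation of log2 values, as a description. For Cpt1a they were Mlxipl at 0.98, Gphn at 0.98 and Sppl2a at 0.98. For Ehhadh they were Gstm4 at 0.99, Lipa at 0.99 and Agmat at 0.98. For Bdh1 they were Ugt2b34 at 0.98, Rnf128 at 0.98 and Acsl5 at 0.98. The arrays of each profile share stage, scaling and the high adult values, and 2 arrays per stage are not independent points of a trend.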

How the data were processed

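RNA of 18 samples was extracted with Trizol, biotin-labelled and measured on Affymetrix arrays, per the labels' protocols. The authors deposited 1 linear intensity per probe set and array, and the sources used here do not give how these were summarised and scaled. Groups came from the source names, since the age entries of later liver samples repeat 10.5 dpc. Probe sets were named through the platform annotation: of 45101, 34945 had 1 symbol, 932 several, 9160 none and 64 were controls.

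Deposited intensities were raised to a floor of 24.8 (20th percentile) and taken to log2. A gene was tested where its probe set exceeded 78.0 (50th percentile) on at least 2 arrays of the fit. A fit held the 14 liver arrays with group means; another held the 12 arrays of matched stages with stage as a factor and tissue, or tissue by day, as the term (limma 3.58.1 in R 4.3.3, lmFit and eBayes with trend, two-sided, Benjamini-Hochberg over all genes tested). On simulated data for 16.5 against 10.5 dpc the code called 81% of genes made to change by 1.5 log2 and 99% at 3 log2, and for the slope with stage 45% at 0.5 and 86% at 1 log2 per day. The labels call replicates biological and do not describe litters; p-values measure only the spread among these samples, which may be technical. The number of arrays limits the precision. Same-numbered arrays of different stages did not deviate together (correlations from -0.28 to 0.20, over 0.1 in 3 of 21 pairs), so the numbers were not used for pairing.

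Alternatives were other floors (10th and 40th percentile), no filter or a filter at the 70th percentile, median centring, quantile normalization, the mean over probe sets, a replicate block, each array left out, and the 10.5 and 12.5 dpc arrays left out. The 8 genes and the gene lists were chosen with earlier results of these data known. Genes beside the 8 were named by rule: per list and main comparison, the called gene with the largest difference in each direction, and for Cpt1a, Ehhadh and Bdh1 the 3 best-correlated genes. Promoter windows came from RefSeq (GRCm38.p6); the sources used here give no build for the probe sets.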

Additional observations from a re-analysis of the deposited data

Results flagged for a closer look

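For 1 gene the difference between liver and the rest of the embryo changed with stage by limma's interaction test. Bdh1 gained 0.53 log2 per day in liver relative to the rest of the embryo. This rests on 1 rest-of-embryo array per stage. The call was lost without a filter on low values and when single arrays were left out. Without the 10.5 dpc rest-of-embryo array the slope was 0.15. The second Bdh1 probe set had a slope of 0.34 log2 per day and was not called.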

How the results depend on the processing

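Of 888 alternative values of single genes, 817 kept their direction and their side of the threshold, 29 lost the call, 11 gained it and 31 changed sign, of which 14 were differences between liver and the rest of the embryo and 15 their slopes with stage. With the replicate block 5 of the 8 genes were called for 16.5 against 10.5 dpc and 4 for the adult against 16.5 dpc, as without it, and no other count of members called changed.

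Without the 10.5 and 12.5 dpc arrays, 1 of the 8 genes (5 with all arrays) and 7 other pathway genes (20) were called for 16.5 dpc against the earliest stage left, 5 (8) and 20 (33) by the F test, and 3 (7) of the 8 for the adult against embryonic liver; Cpt1a read -0.19 log2. Fewer arrays enter that fit. Of the successive steps it kept those after 13.5 dpc, with 0 of the 8 called by limma. At an unadjusted limma p under 0.05 there were 2 and 0 of the 8, against 778 and 1026 of 13753 genes. For liver against the rest of the embryo it called 1 of the 8 and gave Acaa1b 0.027 log2, and for the slope 1 of the 8 (2) and 6 other genes (13), with Cpt2 -0.10, Acadvl -0.0060, Acaa2 -0.10 and Ehhadh -0.14 log2 per day.

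For liver against the rest of the embryo, quantile normalization called 2 of the 8 (0) and 25 other genes (43), and turned Cpt1a to 0.074, Cpt2 to 0.55, Acadvl to 0.58, Acadm to 0.64, Acaa2 to 1.09, Acaa1b to 0.076 and Bdh1 to 0.44 log2. Median centring called 1 and turned Acaa2 to 0.30 and Acaa1b to 0.25. The mean over probe sets turned Acaa2 to 0.23 and the 40th percentile floor Acaa1b to 0.29. The Acadm slope was 0.021 with median centring and 0.0071 with quantile normalization. The slope called 0 of the 8 with no filter and 1 with the 70th percentile filter, which left Acaa1b and Ehhadh untested. Successive steps called 1 of the 8 (2) with the 40th percentile floor, and 4 other genes (7) both with no filter and with the mean over probe sets. The cause was not tested.

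Leaving out 1 array at a time, the 8 genes called numbered 0 to 1 for liver against rest, 0 to 2 for the slope and 1 to 2 for successive steps; other pathway genes numbered 3 to 16 for the slope and 3 to 20 for successive steps, the 20 without replicate 2 of 10.5 dpc liver. The log2 difference between tissues ranged from -0.23 to 0.035 for Acaa2 from -0.56 to 0.17 for Acaa1b and from -0.92 to -0.097 for Bdh1. The 8 genes called for the adult against embryonic liver numbered 5 to 7. Adult against 16.5 dpc ranged from -0.18 to 0.71 for Bdh1. Slopes per day ranged from -0.10 to 0.38 for Cpt2, -0.013 to 0.40 for Acadvl, -0.085 to 0.12 for Acadm, -0.13 to 0.40 for Acaa2 and -0.11 to 0.59 for Ehhadh. Signal near the floor limits Acaa1b before 12.5 dpc and Ehhadh at 10.5 dpc.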
